A study of Schizosaccharomyces pombe with 4 samples.

Results

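The histone genes of fission yeast were followed in *sim3* mutant cells through 10 probes of a spotted ORF array, out of 4857 gene names on that array. They were chosen by gene name and not by their measured values, although earlier results of these data were known at that time. The probes h3.1, h3.2 and h3.3 (*hht1*, *hht2* and *hht3*) represent histone H3, h4.1, h4.2 and h4.3 (*hhf1*, *hhf2* and *hhf3*) histone H4, *hta1* and *hta2* histone H2A, *htb1* histone H2B, and *pht1* the H2A variant H2A.Z. All 10 gave a value on all 4 arrays, as did 4820 genes in all. Each array compared mRNA of *sim3-143* or *sim3-205* cells with mRNA of wild-type cells, from cultures in logarithmic growth, and each allele had 2 arrays with the dyes swapped. Both are missense alleles of *sim3*, so the level of *sim3* mRNA does not check the labels. Replicate 1 carried mutant cDNA in Cy3, and replicate 2 carried it in Cy5, with wild-type cDNA in the other dye. A probe had 2 spots on an array and thus 4 data points in an allele. The temperature of the arrayed cultures, and which of the study's strains were arrayed, are not given in the sources used here.

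Histones package DNA into nucleosomes, in which an H3-H4 tetramer is flanked by H2A-H2B dimers. H2A.Z replaces H2A in nucleosomes near the start of many genes, and the CENP-A protein Cnp1 replaces H3 in the central domain of centromeres. Core histone mRNA is made mainly in S phase, when new DNA has to be packaged, and fission yeast carries several copies of the H3 and H4 genes that encode the same or nearly the same protein. Sim3 belongs to the NASP family of histone-binding proteins, and the arrays were made to ask whether gene expression changes in its mutants. The cultures were not synchronised, so a smaller or larger share of cells in S phase and less or more histone mRNA per cell cannot be told apart in these values.

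The 4 arrays differed in how closely they repeated. Across genes, the log2 ratios of the 2 *sim3-143* arrays correlated with r = 0.476 (4827 genes), and those of the 2 *sim3-205* arrays with r = 0.143 (4850 genes). These are correlations across genes, which are not independent replicates. The SD of log2 ratios over all genes was largest on *sim3-205* replicate 1, at 0.66, and lay between 0.31 and 0.50 on the other 3 arrays. On *sim3-205* replicate 1, 3 of 32 printed grids had Cy3 and Cy5 intensities unrelated to each other, and none of the 10 histone probes lay in them. Values and shares over all genes include these grids unless stated. By 3 of 4 data points, 155 of 4842 genes (3.2%) were past 1.5-fold in *sim3-205* with them. Without them, 104 of 4407 (2.36%) were. The gene names written for *sim3-143* replicate 2 and *sim3-205* replicate 1 ran in alphabetical order for 99.7% of neighbouring spots, so the printed layout of *sim3-143* replicate 1 gave the gene names on all arrays. The deposited values list *sim3-205* replicate 2 under another array platform than the other 3 arrays, and its title carries another array code, while its gene names matched that layout at all positions but 1. Within *sim3-205*, platform, dye and array cannot be told apart. The sources used here do not say whether swapped arrays came from separate cultures, and p-values then measure only the spread between arrays, which may be technical.

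The histone probes were bright on every array. Mean spot intensities of 1 dye ranged from 1121.5 to 47554 over the 10 probes and 4 arrays, no histone spot was saturated, and the dimmest lay 7.32 times above its local background. The dimmest probe was *pht1*, at 3473 in the mutant dye and 1121.5 in the wild-type dye on *sim3-205* replicate 1. Its spots elsewhere were at least 15.8 times above background. Each value is a log2 ratio (mutant over wild-type) from background-corrected and loess-normalized scans, with the 2 spots of an array averaged, and errors are the SD between the 2 arrays of an allele.

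In *sim3-143* cells the histone probes were centred near wild-type, and 1 of them, the H2B gene *htb1*, passed 1.5-fold. The median of the 10 probes was 0.06, against -0.01 over all genes. Of the 10 means, 6 lay above 0 and 4 below, from -0.22 for h4.3 to 0.52 for *htb1*. Only 3 probes were above 0 on both arrays (h3.2, h3.3 and *htb1*), where 32.7% of all genes were, and 1 was below 0 on both (h4.1), where 32.8% of all genes were. For 9 of the 10 probes the SD between arrays was larger than the mean itself, a count not made over all genes. None passed limma at an adjusted p below 0.05, as was true of all 4820 genes tested (0%). At an unadjusted p below 0.05, 1 histone probe passed, against 8.69% of all genes.

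In *sim3-205* cells the histone probes lay mostly above wild-type, but unequally on the 2 arrays. The median of the 10 probes was 0.43, against 0.01 over all genes. Means were above 0 for 9 probes and ran from -0.07 for *hta2* to 0.80 for h4.2. On both arrays 8 probes were above 0, where 28.5% of all genes were, and no probe was below 0 on both, where 25.7% of all genes were. The first count depended on the normalization. With median centring in place of loess, h3.1, h4.1, h4.2 and *hta1* fell to -0.23, -0.23, -0.14 and -0.24 on replicate 2. With loess within each printed grid (print-tip loess), h3.1 and *hta1* fell to -0.06 and -0.10 there. The probes h3.2, h3.3, *htb1* and *pht1* stayed above 0 on both arrays either way. On replicate 1 the probes ranged from 0.23 to 1.51 with a median of 0.66, against 0.02 over all genes, and all 10 were above 0. Past 1.5-fold on that array were 5 probes, against 12.1% of all genes. On replicate 2 they ranged from -0.38 to 0.61 with a median of 0.06, against 0.002 over all genes, and 2 were below 0. Past 1.5-fold there was 1 probe, against 5.4% of all genes. Replicate 1 gave the higher value for 8 of the 10 probes, a count not made over all genes. None passed limma at an adjusted p below 0.05, as again was true of all genes (0%), and the adjusted p of the 10 probes lay between 0.54 and 0.95. At an unadjusted p below 0.05, 3 histone probes passed (h3.2, *htb1* and *pht1*), against 8.78% of all genes.

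**Figure D1:**
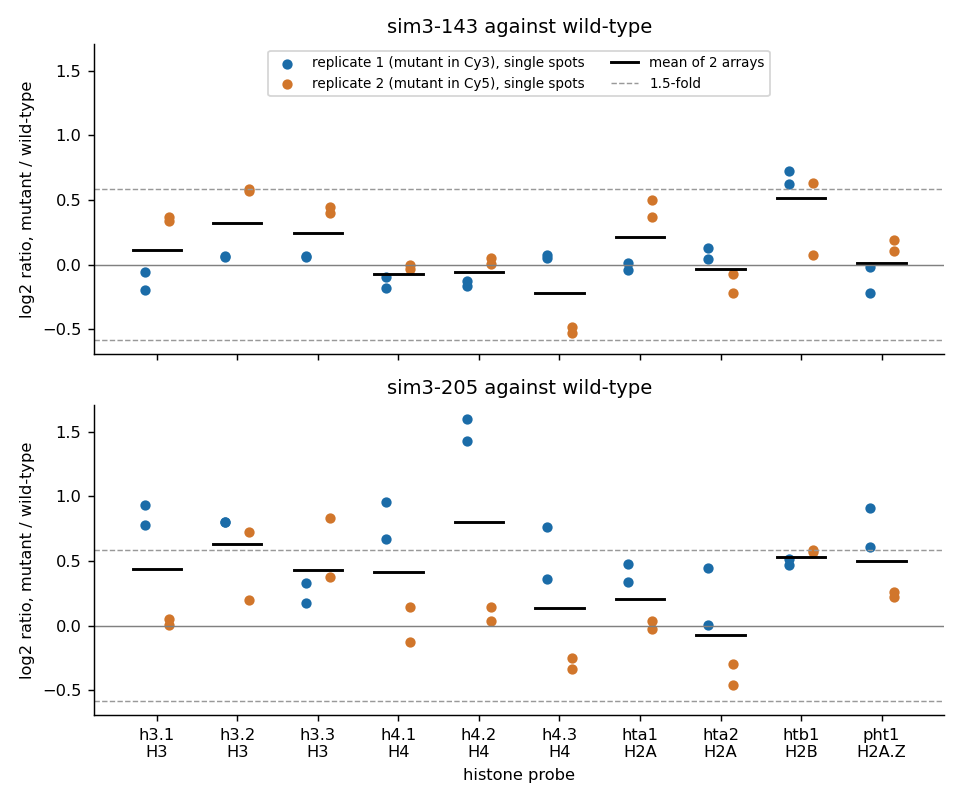
Log2 ratio of mutant over wild-type at each spot of the 10 histone probes (x axis), for *sim3-143* (top) and *sim3-205* (bottom). Blue points are spots of replicate 1 and orange points of replicate 2, black bars are the mean of the 2 arrays and dashed lines mark 1.5-fold. In *sim3-205* the blue points lie above the orange ones for 8 of 10 probes, and the means of 9 probes are above 0.

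Of the 3 H3 probes, h3.2 and h3.3 were above 0 on all 4 arrays, as were 11.5% of all genes, and h3.1 on 3. On *sim3-143* replicate 1, median centring put h3.1, h3.2 and h3.3 at -0.19, -0.009 and -0.006. Print-tip loess put them at -0.15, 0.02 and -0.04 there. The probe h3.2 (*hht2*) had log2 ratios of 0.06 and 0.58 on *sim3-143* replicates 1 and 2, and of 0.80 and 0.46 on *sim3-205* replicates 1 and 2. All 4 arrays were above 0, and the alleles overlapped. Its mean was 0.32 ± 0.37 (SD, n = 2) in *sim3-143*, with an adjusted p of 0.60 from limma. In *sim3-205* its mean was 0.63 ± 0.24 (SD, n = 2), a ratio of 1.55, with an adjusted p of 0.54 from limma. Its 4 spots in *sim3-205* were at 0.80, 0.80, 0.20 and 0.72, so 3 of 4 exceeded 1.5-fold (0.58 on the log2 scale). By this count, h3.2 was the 1 histone probe of 10 past 1.5-fold in *sim3-205*, where 2.6% of all genes passed in that direction and 0.599% in the other. It was no longer past with median centring, with names as written, when all 4 data points had to pass, or without *sim3-205* replicate 1.

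The other 2 H3 probes did not meet that count. The probe h3.3 (*hht3*) was at 0.06 and 0.42 on the *sim3-143* arrays and at 0.25 and 0.61 on the *sim3-205* arrays. It was thus above 0 on all 4 arrays and higher on replicate 2 of each allele. The probe h3.1 (*hht1*) was at -0.12 and 0.35 in *sim3-143* and at 0.85 and 0.02 in *sim3-205*, so that in *sim3-205* a single array carried its mean of 0.44 ± 0.59 (SD, n = 2). Averaged over the 3 H3 probes, the log2 ratio was 0.23 ± 0.32 (SD, n = 2) in *sim3-143* and 0.50 ± 0.19 (SD, n = 2) in *sim3-205*.

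The H4 genes were near or below wild-type in *sim3-143* and divided between arrays in *sim3-205*. The probe h4.2 (*hhf2*) had the highest histone mean of *sim3-205*, from values of 1.51 on replicate 1 and 0.09 on replicate 2. Both spots of replicate 1 were high, at 1.425 and 1.598, and both of replicate 2 were low, at 0.15 and 0.03. The raw intensities at this probe were 23522 in the mutant and 5170.8 in the wild-type dye on replicate 1, and 16352 and 14054 on replicate 2. Its mean of 0.80 ± 1.01 (SD, n = 2) was smaller than its spread, and limma gave an adjusted p of 0.57. With *sim3-205* replicate 2 left out, limma called h4.2 alone of the 10 probes, at 1.51 with an adjusted p of 0.0078, where the single *sim3-205* array takes its spread from the *sim3-143* arrays. In that fit limma called 337 genes in all, 6.99% of those tested. With replicate 1 left out it was at 0.09 with an adjusted p of 0.98 from limma. In *sim3-143*, h4.2 was at -0.14 and 0.03.

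The probe h4.1 (*hhf1*) was at -0.13 and -0.02 in *sim3-143* and at 0.82 and 0.01 in *sim3-205*. It was the only histone probe below 0 on both arrays of one allele and above 0 on both arrays of the other, a pattern shown in that direction by 6.27% of all genes. The probe h4.1 lost this pattern with print-tip loess and with median centring. One spot of *sim3-205* replicate 2 was below 0, at -0.13. The probe h4.3 (*hhf3*) was at 0.06 and -0.50 in *sim3-143* and at 0.56 and -0.29 in *sim3-205*, and in each allele its replicate 2 value was the lower. Over the 3 H4 probes the mean was -0.12 ± 0.06 (SD, n = 2) in *sim3-143* and 0.45 ± 0.73 (SD, n = 2) in *sim3-205*.

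The H2B gene *htb1* had the smallest spread of the 10 over all 4 arrays, with an SD of 0.14. Its log2 ratios were 0.68 and 0.36 on the *sim3-143* arrays and 0.49 and 0.58 on the *sim3-205* arrays. All 8 spots were above 0, and the alleles overlapped. Its mean was 0.52 ± 0.23 (SD, n = 2) in *sim3-143*, a ratio of 1.43, and 0.53 ± 0.06 (SD, n = 2) in *sim3-205*, a ratio of 1.45. limma gave unadjusted p of 0.024 and 0.021 and adjusted p of 0.55 and 0.54. In *sim3-143* its spots were at 0.62, 0.73, 0.63 and 0.08, so that it was the 1 histone probe of 10 past 1.5-fold by 3 of 4 data points, where 2.09% of all genes passed in that direction and 1.39% in the other. It was no longer past with print-tip loess, median centring, names as written or no dye normalization, when all 4 data points or their mean had to pass, or without *sim3-143* replicate 1. In *sim3-205* no spot passed 1.5-fold, the highest being 0.58. The difference between the alleles was 0.02 with a standard error of 0.23 (adjusted p = 0.99 from limma). Under loess, 3 histone probes were above 0 on all 4 arrays (h3.2, h3.3 and *htb1*), against 11.5% of all genes. With median centring, h3.2 and h3.3 were at -0.009 and -0.006 on *sim3-143* replicate 1. With print-tip loess, h3.3 was at -0.04 on that array. The gene *htb1* stayed above 0 on all 4 arrays under both.

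The H2A genes lay nearer to wild-type than *htb1* by their means. The gene *hta1*, which encodes one form of H2A and lies beside *htb1*, was at -0.01 and 0.43 in *sim3-143* and at 0.41 and 0.00 in *sim3-205*. Its mean was 0.21 in both alleles, with SD of 0.31 and 0.28. The gene *hta2*, which encodes the other H2A, was at 0.08 and -0.14 in *sim3-143* and at 0.23 and -0.38 in *sim3-205*, and was the 1 probe with a mean below 0 in *sim3-205*, at -0.07 ± 0.43 (SD, n = 2). It had the lowest value of the 10 probes on each *sim3-205* array.

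The H2A.Z gene *pht1* had a mean near 0 in *sim3-143* and was above 0 on both *sim3-205* arrays. It was at -0.12 and 0.15 on the *sim3-143* arrays, a mean of 0.01 ± 0.19 (SD, n = 2). On the *sim3-205* arrays it was at 0.76 and 0.24, a mean of 0.50 ± 0.37 (SD, n = 2). Both *sim3-205* arrays were above both *sim3-143* arrays, which was so for 3 of the 10 histone probes and 19.2% of all genes. limma gave an unadjusted p of 0.049 and an adjusted p of 0.56 in *sim3-205*, and the difference between the alleles was 0.48 with a standard error of 0.27 (adjusted p = 0.71 from limma). H2A.Z exceeded the mean of both H2A probes by 0.44 and 0.43 on the *sim3-205* arrays, whereas on the *sim3-143* arrays the difference was -0.15 and 0.00.

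**Figure D2:**
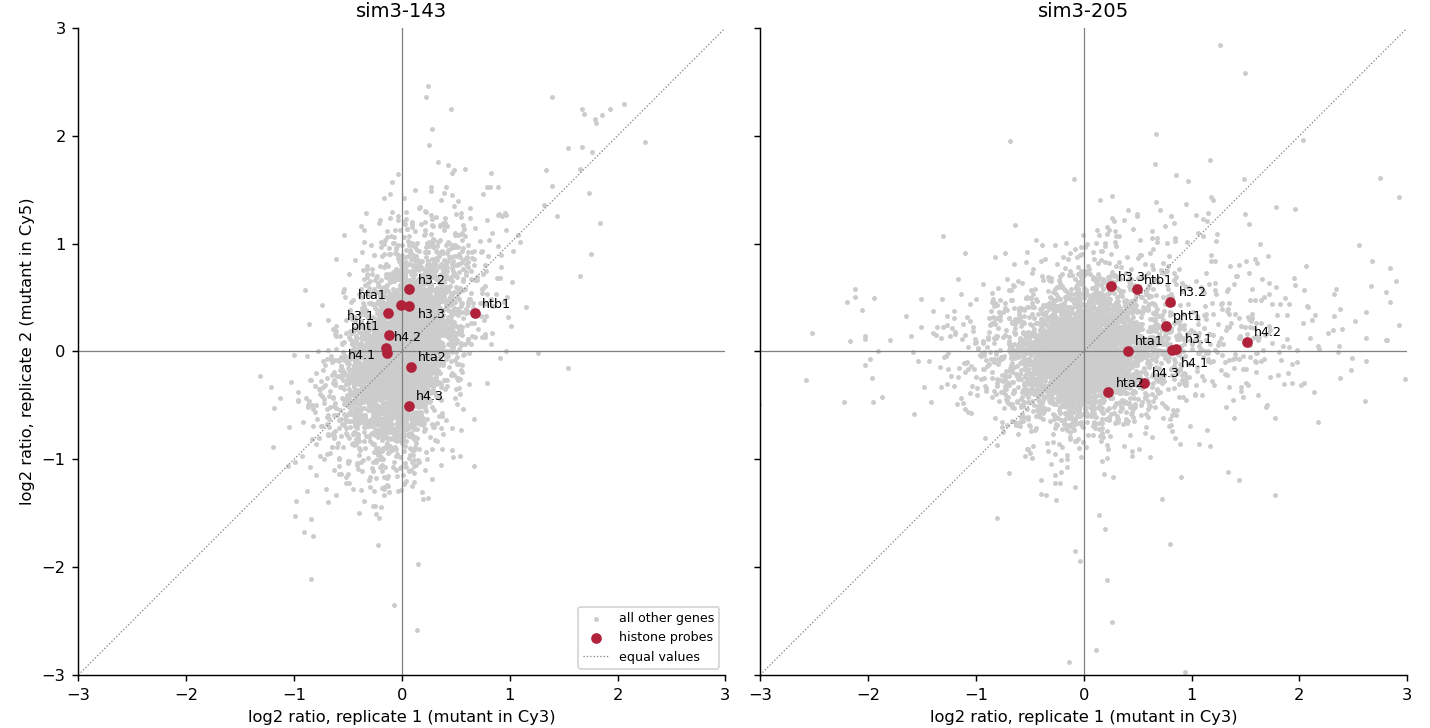
Log2 ratio of mutant over wild-type on replicate 1 (x axis) and replicate 2 (y axis) for *sim3-143* (left) and *sim3-205* (right), with histone probes in red, all other genes in grey and a dotted line of equal values. The axes stop at 3, which leaves out 2 genes on the left and 39 on the right. In *sim3-205* all 10 histone probes lie right of 0 and 8 lie above 0, and h4.2 stands farthest right at 1.51.

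The question of whether the 2 alleles differed in histone expression was addressed by the contrast of their means. The *sim3-205* mean was the higher for 8 of the 10 probes, against 50.8% of all genes, and the median difference of the 10 probes was 0.32 against 0.01 over all genes. Single differences ran from -0.05 for *hta2* to 0.86 for h4.2, with standard errors of 0.23 to 0.49. No histone probe passed limma for this difference, at adjusted p of 0.71 to 0.996, and no gene of the 4820 did (0%). None of the 10 reached an unadjusted p below 0.05, where 5.06% of all genes did. With *sim3-205* replicate 2 left out, h4.2 differed by 1.57 (adjusted p = 0.020 from limma), in a fit that called 309 genes, 6.41% of those tested. With replicate 1 left out it differed by 0.15 (adjusted p = 0.998 from limma).

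Most of these genes lie in divergent pairs, in which neighbouring genes are read away from each other. By the locus names and the gene table, h3.1 and h4.1, h3.2 and h4.2, h3.3 and h4.3, and *hta1* and *htb1* are neighbouring protein-coding genes, whereas *hta2* and *pht1* have no histone neighbour among the 10. Partners were compared within each array by subtracting their log2 ratios. The pair h3.1 and h4.1 was closely matched on 3 arrays, with h3.1 higher by 0.01 on *sim3-143* replicate 1 and by 0.04 and 0.02 on the *sim3-205* arrays, and differed by 0.37 on *sim3-143* replicate 2. In the pair h3.2 and h4.2, the H3 gene was higher on 3 arrays, by 0.21, 0.55 and 0.37, and lower on *sim3-205* replicate 1, by a difference of -0.71. In the pair h3.3 and h4.3, the difference was near 0 or negative on replicate 1, at 0.00 in *sim3-143* and -0.31 in *sim3-205*, and positive on replicate 2, at 0.93 and 0.90.

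The H2A-H2B pair was also uneven. The difference *hta1* minus *htb1* was -0.69 and 0.08 in *sim3-143* and -0.08 and -0.57 in *sim3-205*, so that *htb1* was the higher on 3 of 4 arrays. Taken over the 3 genes of each kind, H3 exceeded H4 by 0.62 and 0.43 on the arrays with the mutant in Cy5. On the arrays with the mutant in Cy3 the difference was 0.07 and -0.33. In each allele the H3 to H4 difference was thus higher on the array with the mutant in Cy5. Dye and array cannot be told apart within an allele, nor dye and platform within *sim3-205*. The part of the dye in this difference was not tested beyond a coefficient for each probe, which equals a replicate block by array number. In limma this coefficient was -0.71 for h4.3 (adjusted p = 0.50) and -0.62 for h4.2 (adjusted p = 0.64). For this coefficient no histone probe passed, nor did any gene (0%). At an unadjusted p below 0.05, 1 histone probe and 9.75% of all genes did.

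**Figure D3:**
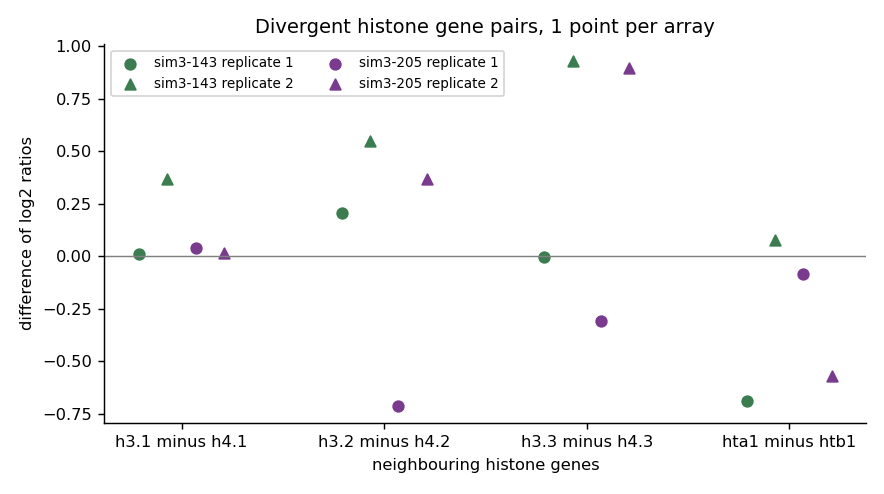
Difference of log2 ratios between the members of each divergent histone gene pair (y axis), with 1 point per array, circles for replicate 1 (mutant in Cy3) and triangles for replicate 2 (mutant in Cy5), in green for *sim3-143* and purple for *sim3-205*. The h3.1 and h4.1 pair lies near 0 on 3 arrays, and the h3.3 and h4.3 pair is at 0.93 and 0.90 on replicate 2 of both alleles.

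The files do not give probe sequences. The 3 H3 genes, and likewise the 3 H4 genes, encode the same or nearly the same protein, so a probe may also bind mRNA of its sister copies. Their values are thus uncertain as readings of separate genes, and cross-hybridisation was not tested. The values of the copies did differ within an array, by up to 0.95 between h4.2 and h4.3 on *sim3-205* replicate 1.

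The probes were printed in 7 grids, which allowed their values to be set beside those of neighbouring spots. On *sim3-143* replicate 2, the median log2 ratio of all genes in the grid was 0.24 for h3.1 and h3.2, 0.21 for h3.3, 0.18 for h4.3 and 0.12 for *pht1*, and 0.05 or less in the grids of the other 5 probes. On *sim3-205* replicate 1 the medians of these 7 grids lay between -0.14 and 0.07. Normalization within each printed grid (print-tip loess) lowered the H3 values of *sim3-143* replicate 2 to 0.01 for h3.1, 0.23 for h3.2 and 0.13 for h3.3. It turned the *sim3-143* median to -0.07 and left no histone probe past 1.5-fold in that allele, where *htb1* had a mean of 0.46. In *sim3-205* it left the median at 0.40, with h3.2 still past 1.5-fold at a mean of 0.58.

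**Figure D4:**
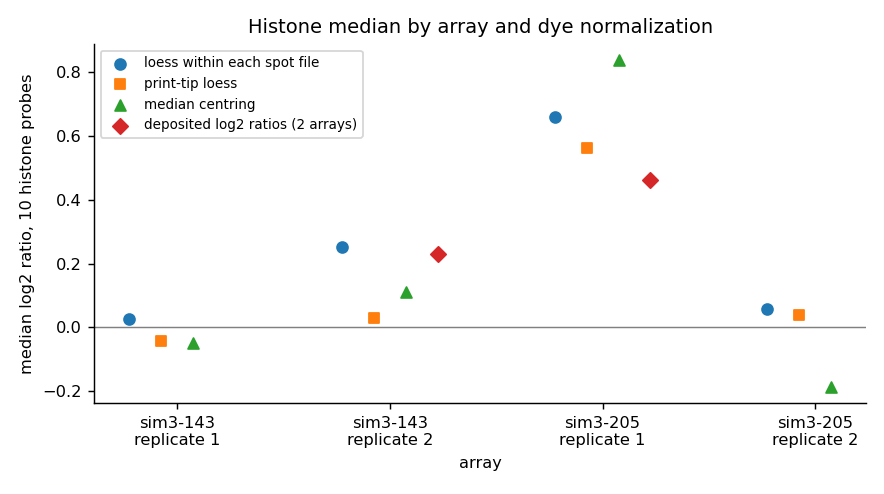
Median log2 ratio of the 10 histone probes (y axis) on each array (x axis) under loess within each spot file (circles), print-tip loess (squares), median centring (triangles) and, for 2 arrays, the deposited log2 ratios (diamonds). *sim3-205* replicate 1 stands highest under each of the 4, with medians of 0.66, 0.56, 0.84 and 0.46. *sim3-205* replicate 2 is at 0.06 under loess, 0.04 under print-tip loess and -0.19 under median centring.

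The authors' own normalized log2 ratios could be used for the histone probes on 2 of the 4 arrays. On *sim3-143* replicate 2 they ranged from -0.55 (h4.3) to 0.55 (h3.2) with a median of 0.23, and on *sim3-205* replicate 1 from 0.06 (h3.3) to 1.15 (h4.2) with a median of 0.46. All 10 probes had the same sign there as in the loess values of the same array. The largest gap between both sources was 0.05 on *sim3-143* replicate 2 and 0.36 on *sim3-205* replicate 1.

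Genes that act on histones were then read in the same fits, from 6 lists of 52 genes, 50 of which were measured. Among transcriptional regulators of histone genes, 5 of 6 were measured, and the probe for *teb1* was marked as missing. None passed limma or the 1.5-fold count in either allele, and none had an unadjusted p below 0.05. The medians were 0.13 in *sim3-143* and 0.01 in *sim3-205*. The gene *ams2*, a GATA factor that activates core histone genes, was at -0.23 and 0.23 in *sim3-143* and at -0.19 and -0.09 in *sim3-205*, and was the lowest of the list in each allele. The HIRA complex genes *hip3* (0.32 ± 0.25, SD, n = 2) and *hip1* (0.18 ± 0.17, SD, n = 2), which encode parts of a repressor of histone genes, were the highest in *sim3-143* and *sim3-205* respectively. Thus the list held no member as high as h3.2 in *sim3-205*.

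All 10 histone chaperone genes were measured, and none passed limma or the 1.5-fold count in either allele. At an unadjusted p below 0.05, 2 did in *sim3-205* (*asf1* and *spt16*), where 8.78% of all genes did, and none in *sim3-143*, where 8.69% did. Their medians were 0.05 in *sim3-143* and -0.10 in *sim3-205*. The transcript of *sim3* itself was at 0.25 and -0.04 in *sim3-143* and at 0.00 and -0.27 in *sim3-205*. The highest chaperone gene in both alleles was *asf1*, whose product carries H3-H4 dimers. It was at 0.37 and 0.66 in *sim3-143* and at 1.56 and 0.35 in *sim3-205*. The lowest in *sim3-143* was *nap1*, which encodes a chaperone of H2A-H2B, at -0.30 and -1.26. On *sim3-205* replicate 1, *asf1* and *nap1* lay in grids whose dyes were unrelated. The lowest in *sim3-205* was *spt16*, a subunit of the FACT complex, which was at 0.40 and 0.01 in *sim3-143* and at -0.66 and -0.39 in *sim3-205*.

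For H2A.Z, the 12 genes of the SWR1 complex and related loading factors were measured alongside *pht1*. None passed limma, an unadjusted p below 0.05 or the 1.5-fold count, with medians of 0.10 in *sim3-143* and -0.07 in *sim3-205*. The highest in both alleles was *swc3*, at 0.20 and 0.71 in *sim3-143* and at 0.01 and 0.55 in *sim3-205*. The lowest were *alp5* in *sim3-143*, with a mean of -0.42 ± 0.17 (SD, n = 2), and *swc5* in *sim3-205*, with a mean of -0.67 ± 0.88 (SD, n = 2). In *sim3-205*, 3 of the 12 had a mean above 0, while *pht1* was above 0 on both arrays. The centromeric H3 variant gene *cnp1* was at -0.09 and 0.31 in *sim3-143* and at -0.10 and 0.07 in *sim3-205*, so that its arrays lay on both sides of 0 in each allele.

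Histone mRNA is made in S phase, so 13 transcripts that the MBF transcription factor activates at the G1 to S transition were examined as well. Their medians were -0.04 in *sim3-143* and -0.05 in *sim3-205*, and none passed limma, while 2 had an unadjusted p below 0.05 in *sim3-205* (8.78% of all genes) and none in *sim3-143* (8.69%). In *sim3-205*, 2 of 13 were past 1.5-fold upwards by 3 of 4 data points (2.6% of all genes) and none downwards (0.599%). These were *suc22*, the small subunit of ribonucleotide reductase, at 0.97 and 0.60, and *nrm1*, a repressor of MBF, at 0.70 and 1.31. The latter lay in a grid with unrelated dyes on *sim3-205* replicate 1, as did other genes of this list. By mean, *nrm1* was the highest of the list in both alleles, *cdc22*, the large subunit of ribonucleotide reductase, was the lowest in *sim3-143* (-0.47 ± 0.11, SD, n = 2), and *pol1*, the catalytic subunit of DNA polymerase alpha, was the lowest in *sim3-205* (-0.33 ± 0.02, SD, n = 2). On *sim3-205* replicate 1, where the histone probes were highest, the median of the 13 was 0.28, with values from grids of unrelated dyes included. On replicate 2 it was -0.11. The part of S-phase cells in the histone values was not tested.

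Of 10 enzymes that modify H3 or H4, 9 were measured, and none passed limma or the 1.5-fold count (1, *clr4*, had an unadjusted p below 0.05 in *sim3-205*, as did 8.78% of all genes), with medians of 0.07 in *sim3-143* and 0.00 in *sim3-205*. The acetyltransferase gene *mst2* was the highest in both alleles, with means of 0.36 ± 0.09 and 0.21 ± 0.13 (SD, n = 2 each). The lowest were *hat1*, a histone acetyltransferase gene, in *sim3-143* (-0.20 ± 0.04, SD, n = 2) and *clr4*, the H3 lysine methyltransferase of heterochromatin, in *sim3-205* (-0.40 ± 0.15, SD, n = 2). Set beside these 5 lists, whose *sim3-205* medians lay between -0.10 and 0.01, the 10 histone probes had a median of 0.43. By *sim3-205* array, the histone median was 0.66 on replicate 1 and 0.06 on replicate 2. The medians of the 5 lists lay between -0.15 and 0.28 on replicate 1, and between -0.19 and 0.11 on replicate 2.

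**Figure D5:**
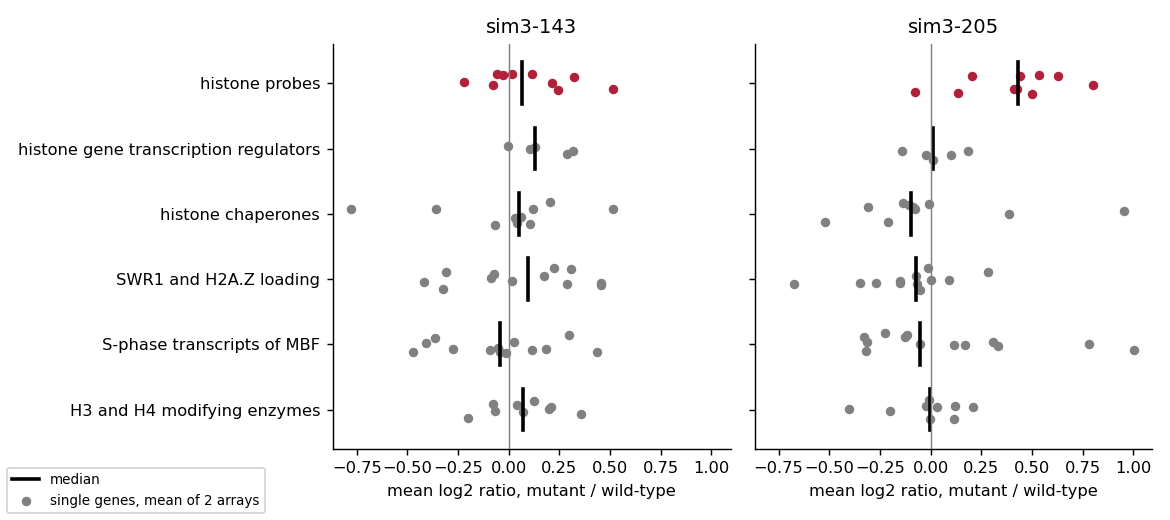
Mean log2 ratio of mutant over wild-type over 2 arrays (x axis) for single genes of each list (y axis), in *sim3-143* (left) and *sim3-205* (right), with histone probes in red, other lists in grey and black bars at the medians. The histone median is 0.06 on the left and 0.43 on the right, where the other medians lie between -0.10 and 0.01. By *sim3-205* array, the histone median is 0.66 on replicate 1 and 0.06 on replicate 2.

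The profile of the core histones was also matched against all other genes. The median of the 9 core histone probes was 0.06, 0.35, 0.56 and 0.02 on *sim3-143* replicates 1 and 2 and *sim3-205* replicates 1 and 2. By root mean square difference over these 4 arrays, the closest gene outside the histones was *pot1*, which encodes a telomere protein, at 0.070. It was followed by *txc1*, *gal10*, *rps2*, a ribosomal protein gene, and *cdc12*, a formin gene of the cytokinetic ring, at 0.086 to 0.091. The nearest histone probe was *hta1*, at 0.095, with 6 other genes closer. The probe h4.2 was the farthest at 0.51, and 63.7% of the other genes were closer to the core histone profile than it was. The H2A.Z gene *pht1*, which did not enter the profile, was at 0.20, with 114 other genes closer.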

How the data were processed

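The 10 histone probes and the gene lists were chosen with earlier results of these data known. Mutant and wild-type cDNA (*sim3-143* or *sim3-205*) were hybridized together on spotted ORF arrays, 4 in all with 2 per allele and swapped dyes. Groups and dyes follow the sample labels. The deposited scanner files hold intensity per spot and local background in both dyes, not normalized. The deposited log2 ratios were made by the authors with GeneSpring and its Lowess normalization. Arrays have no read depth, and the number of arrays limits the precision. Median spot intensity was 953 to 2369.5, and median background 101 to 209.5.

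limma 3.58.1 (R 4.3.3) was used for normexp background correction with an offset of 50 and for loess normalization of each spot file with a span of 0.3. Of the 11520 spots of an array, 8 to 60 with codes 1 or 4 of the image software and, over all arrays, 73 spots whose Cy3 intensity was 0 were excluded. Of 5070 names, 213 controls were left out. Genes were named by grid position, since 30 of 5760 positions matched the layout on the 2 arrays with alphabetical names. The deposited ratios of these 2 arrays followed the written names and were moved back to their spots. Their median over all values was 0.072 and -0.063 on these arrays, and their background treatment is not given in the sources used here.

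The tests used lmFit and eBayes over the 4 arrays, 1 coefficient per allele (2 residual degrees of freedom) and Benjamini-Hochberg adjustment over 4820 genes, with a threshold of 0.05. A gene was past 1.5-fold when 3 or more of its 4 data points passed on the same side, a count without a p-value. The scripts were tested on simulated data. The text names the 10 probes, *cnp1*, *sim3*, *ams2*, the highest and lowest member of each list by allele, and the 5 genes closest to the core histone median profile. *suc22* was named after its values were seen. Of the 10 names on the array, 9 are in the ASM294v3 gene table, and h3.1 was read as *hht1* from the definition of the gene set. No coordinates were taken from that table. Alternatives were other background corrections, dye normalizations and filters, names as written, deposited ratios, each array left out, a dye coefficient, each allele alone, other counting rules and an adjusted p below 0.1. The values with no dye normalization were added after the data were seen. Counts and figures were made in Python 3.11.15 with pandas 2.3.3, numpy 2.4.6 and matplotlib 3.10.9.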

Additional observations from a re-analysis of the deposited data

Results flagged for a closer look

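The H4 probe h4.1 was flagged because both *sim3-143* arrays lay below 0 (-0.13 and -0.02) and both *sim3-205* arrays above 0 (0.82 and 0.01), a difference between the allele means of 0.49. The test of that difference did not pass (standard error 0.33, adjusted p = 0.73 from limma). The pattern of signs was lost with print-tip loess, where h4.1 was at 0.01 on *sim3-143* replicate 2. It was also lost with median centring, where h4.1 was at -0.23 on *sim3-205* replicate 2. With *sim3-205* replicate 1 left out, the difference was 0.085 (adjusted p = 0.998 from limma).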

How the results depend on the processing

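The labels give no replicate numbers, so none paired the arrays. A dye coefficient, which here equals a replicate block by array number, left 0 histone probes called in each allele and in the difference. limma called 0 histone probes under every alternative run except without *sim3-205* replicate 2, as given above for h4.2. Over all genes and with no array left out, it called 43 of 4827 in *sim3-143* (0.891%) with each allele alone. It called 9 there without dim spots (0.204%), 9 without the grids of unrelated dyes (0.205%) and 3 with print-tip loess (0.0622%). In the other such alternatives, in *sim3-205* and in the difference, it called none (0%). The *sim3-205* median stayed above 0 under all alternatives, from 0.03 with names as written to 0.85 with no dye normalization, where the median of all genes was itself 0.49. Leaving out arrays gave 0.057 to 0.66 under loess. With median centring, the histone median was 0.84 on *sim3-205* replicate 1 alone and -0.19 on *sim3-205* replicate 2 alone. The *sim3-143* median was 0.026 to 0.25 with an array left out, -0.06 with names as written, 0.00 with median centring, -0.07 with print-tip loess and -0.18 with no dye normalization (all genes -0.19). The count of histone probes past 1.5-fold in *sim3-143* was 0 with print-tip loess, median centring, names as written, no dye normalization, all 4 data points or their mean. Of all genes, 2.86%, 3.65%, 0.726%, 4.77%, 2.07% and 8.27% were past in either direction there, in that order. Under the main settings 3.48% were. In *sim3-205* the count of histone probes was 0 with median centring, names as written or all 4 data points. It was 2 with the mean of the data points and 3 with no dye normalization. Of all genes, 3.22%, 1.52%, 1.57%, 9.56% and 17.3% were past in either direction there, in that order. Over the whole array, 155 of 4842 genes (3.2%) were past 1.5-fold in *sim3-205* under the main settings used here. Their number rose too: to 463 with the mean, 839 with no dye normalization and 617 without *sim3-205* replicate 2, where the 5 were counted. The causes were not tested. With all arrays and names by position, 4 probes changed the sign of their mean in *sim3-143* under at least 1 of 8 alternatives and 1 did in *sim3-205*. The deposited log2 ratios gave no value for these results, because no histone probe had one on all 4 arrays. With 2 arrays per allele, an exact test per gene cannot pass 0.05.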
